A study of Saccharomyces cerevisiae with 18 samples.

Results

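The heat response of H2A S121A budding yeast was measured in 6 of the 18 RNA-seq libraries of the series, 3 from mutant cells held for 10 min at 39 °C and 3 from mutant cells in log phase in YPD medium at 30 °C. The response is the difference between these groups, heated minus unstressed, for each of the 6395 genes that passed a filter on low counts, out of 6746 features in the count table. Histone H2A is one of the core histones on which DNA is wound, and S121A replaces a serine near its carboxyl end with alanine. Every library, mutant or wild type, came from a MATa FY406 strain with lys2-128delta, trp1delta63, ura3-52, leu2delta1 and his3delta200, in which LEU2 replaces hta1-htb1 and TRP1 replaces hta2-htb2. The only H2A and H2B genes left are thus on a plasmid, HTA1-HTB1 with the S121A codon in the mutant and without it in the wild type. The remaining 12 libraries are mutant cells after 15 min in 0.4 M NaCl, wild-type cells after heat, wild-type cells after NaCl and unstressed wild-type cells, 3 each. Each genotype is 1 strain, and the labels do not say whether the 3 libraries of a group came from separate cultures, so the p-values below measure the spread between these libraries, which may be technical.

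Yeast moved to a higher temperature unfolds part of its proteins. Hsf1, bound to heat shock elements, then drives the genes of chaperones, which hold, refold or disaggregate proteins, and Msn2 and Msn4, bound to stress response elements, drive a general stress programme of carbohydrate stores, antioxidant enzymes and small protective proteins. In the same minutes the genes that make ribosomes are shut down. These 3 branches are the frame in which the values below are ordered.

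The heated mutant libraries had totals of 39573778 to 47566383 counts, and the unstressed mutant libraries 47027873 to 53034823, so that 3 counts, the detection floor used here, correspond to 0.0566 to 0.0758 CPM over all 18 libraries. CPM, each gene's counts relative to the scaled library total, are given after TMM scaling, which sets the bulk of genes level between libraries. The floor alone is stated on unscaled totals. The scaling factors were 0.779 to 0.844 in heated and 1.2 to 1.28 in unstressed mutant libraries, so on the scaled values the floor lies higher in heated ones. The 10 most abundant genes took 20.7% to 22.4% of the counts in heated mutant cells and 14% to 14.8% in unstressed mutant cells. On a principal component analysis of all 18 libraries the first component carried 77.7% of the variance, and the heated mutant libraries lay at 40.5 to 43.4, the heated wild-type libraries at 50.6 to 54.7 and the unstressed mutant libraries at -63.5 to -62.7. The HTA1 row counts the plasmid gene in both strains and does not show the altered codon, so the mutation itself was not checked. Genes of chromosome III with at least 10 CPM, 133 in number, had a median log2 level in the mutant relative to the wild type of 0.55 unstressed and 0.68 after heat, against -0.07 and -0.03 for 4779 genes elsewhere. Their median heat response in the mutant was 0.02. The median difference of the heat responses, mutant minus wild type, was 0.15 for these genes and 0.06 elsewhere. The shift thus touches levels compared between strains for genes on that chromosome, among them HSP30, PGK1 and GLK1. Its part in the differences of response of single genes was not tested.

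Heat changed most of the measured transcriptome of the mutant. With edgeR's quasi-likelihood test and a Benjamini-Hochberg adjusted p under 0.05, 2579 genes (40.3%) were higher and 2536 (39.7%) lower in heated than in unstressed S121A cells, 80% of all genes tested. At least a 2-fold change was called in 1248 genes upward (19.5%) and 1293 downward (20.2%), at least a 4-fold change in 482 upward (7.54%) and 546 downward (8.54%), and at least a 16-fold change in 103 upward (1.61%) and 79 downward (1.24%). In 2595 genes (40.6%) all 3 heated libraries lay above all 3 unstressed ones, and in 2592 (40.5%) all lay below. Counts are relative to the library, and scaling by library totals alone gave a median log2 change over all genes of -0.63 instead of -0.01, and 1372 higher and 3899 lower calls, 26% of calls higher instead of 50.4%. All changes below are log2 fold changes unless another scale is named, are relative to the bulk of genes and come from whole cultures, in which less RNA of a gene per cell cannot be told apart from fewer cells that make it.

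The turn in the make-up of the messenger pool was large. The 91 listed chaperone and folding genes took 16.5%, 15.8% and 17.3% of all counts in the 3 heated libraries, 16.5% ± 0.74, against 3.25% ± 0.084 in unstressed mutant cells (SD, n = 3 each). The 137 ribosomal protein genes took 3.37% ± 0.088 in heated cells and 19.3% ± 0.34 in unstressed cells. Ribosome assembly genes, 93 in number, took 0.0653% ± 0.0034 in heated cells, against 1.15% ± 0.034 in unstressed cells. In none of the 3 classes did the libraries of the groups overlap. Per kilobase of coding sequence, TDH3, which encodes the main glyceraldehyde-3-phosphate dehydrogenase, was the most abundant transcript in both groups. The transcripts of HSP30, HSP26, SPI1 and SSA4 ranked 4th, 5th, 7th and 10th of 5869 in heated cells, against 1628th, 944th, 865th and 1466th in unstressed cells.

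**Figure D1:**
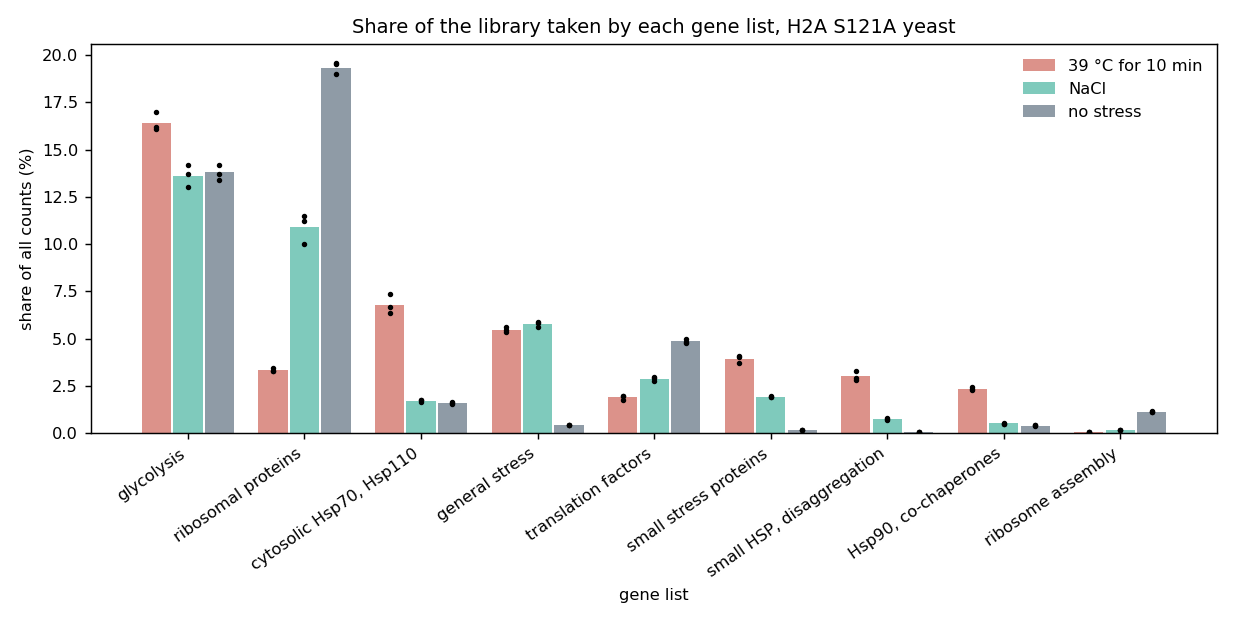
Share of all counts (%, linear axis from 0) taken by 9 gene lists in H2A S121A yeast after 10 min at 39 °C, after NaCl and without stress. Bars are means of 3 libraries and black dots single libraries. The bar of ribosomal proteins stands at 3.37% after heat and 19.3% without stress, and that of the cytosolic Hsp70 list at 6.8% after heat and 1.61% without stress.

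**Figure D2:**
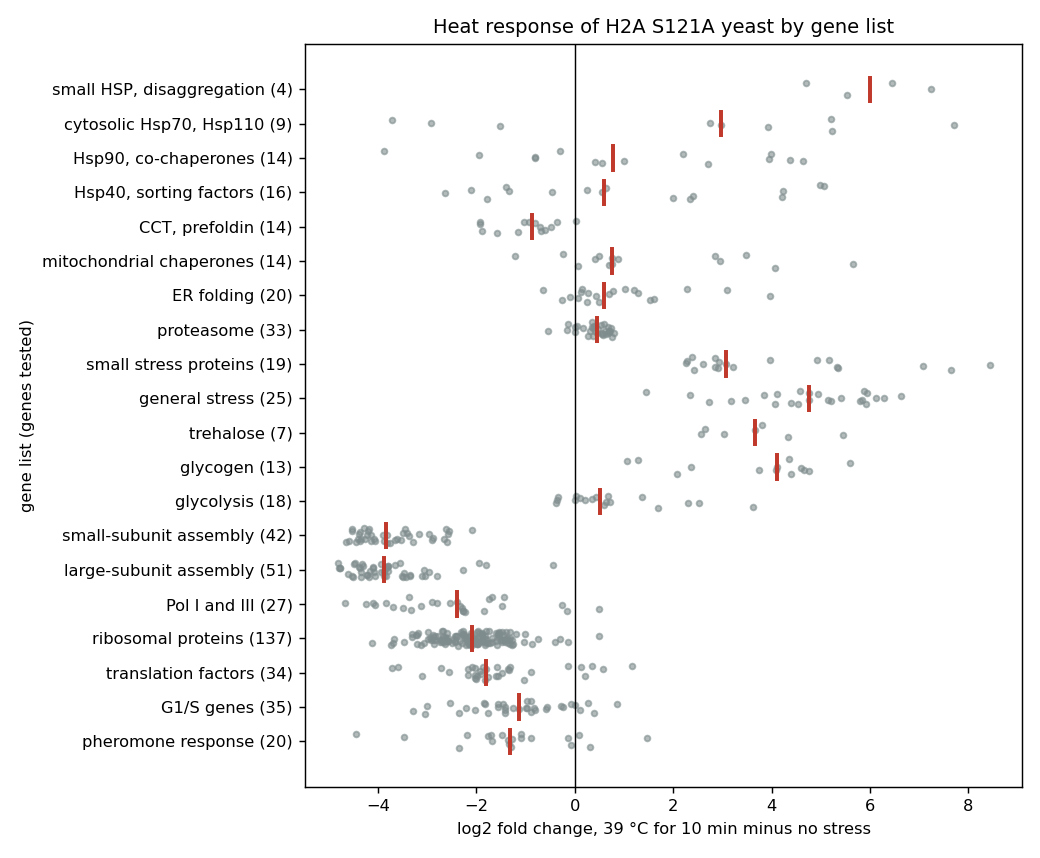
Heat response of H2A S121A yeast (log2 fold change, 39 °C for 10 min minus no stress) of each tested member of 20 gene lists, with the median as a red bar. Every member of the small stress protein, general stress, trehalose and glycogen lists lies to the right of 0 and every ribosome assembly gene to the left, while the lists of Hsp40, ER folding, proteasome and glycolysis genes have small positive medians that turn negative when libraries are scaled by their totals alone.

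Small heat shock proteins and the disaggregase, which deal with aggregates, had the highest median of the chaperone lists. HSP42 (YDR171W, chrIV:806621-807748, plus strand, build R64) and HSP26 encode the small heat shock proteins that bind unfolding proteins, and HSP104 the disaggregase that pulls them out of aggregates. HSP42 stood at 5904, 5302 and 7349 CPM in the 3 heated mutant libraries, against 73.2, 67.7 and 70.6 CPM in the unstressed ones. The log2 change of HSP42 was 6.46 ± 0.14 (SE) with an adjusted p of 2.35e-19. HSP26 stood at 10902, 10202 and 13308 CPM in heated cells, against 78.1, 72.7 and 76.5 CPM in unstressed cells, a log2 change of 7.24 ± 0.12. HSP104 had 15066, 14650 and 16802 CPM in heated cells, against 355, 326 and 327 CPM in unstressed cells, a log2 change of 5.53 ± 0.10. No heated library came near an unstressed one for any of the 3 genes. With HSP12, a small membrane-associated stress protein, all 4 genes of this list rose, with a median log2 change of 5.99, where the median of all 6395 genes was -0.01.

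The windows upstream of 2 of these heat-induced chaperone genes are printed because they hold the heat shock element that few of the induced genes hold in full. The letters searched, on both strands, were GAA, TTC and GAA with any 2 bases between neighbours for the heat shock element and AGGGG for the stress response element, in windows from 250 bases before to 50 bases after the start codon (RefSeq, build R64). The heat shock element was found in 18 of 421 windows (4.28%) of genes at least 4-fold higher after heat, in 4 of 515 (0.777%) of genes at least 4-fold lower, and in 47 of all 5852 windows (0.803%). HSP42 (chrIV:806371-806670, plus strand) held 2 overlapping elements, the outermost bases 243 and 238 bases before the start codon, followed by 3 AGGGG at 212, 200 and 182 bases. KAR2 (chrX:381077-381376, plus strand), which encodes the Hsp70 of the endoplasmic reticulum, held 2 overlapping heat shock elements that begin 205 and 200 bases before its start codon. Capitals mark the elements.
HSP42: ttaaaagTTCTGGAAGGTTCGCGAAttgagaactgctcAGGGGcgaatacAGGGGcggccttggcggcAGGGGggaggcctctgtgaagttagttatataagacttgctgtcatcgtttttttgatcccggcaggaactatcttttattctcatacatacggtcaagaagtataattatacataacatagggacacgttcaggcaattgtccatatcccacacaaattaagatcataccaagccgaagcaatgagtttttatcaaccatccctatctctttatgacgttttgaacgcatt
KAR2: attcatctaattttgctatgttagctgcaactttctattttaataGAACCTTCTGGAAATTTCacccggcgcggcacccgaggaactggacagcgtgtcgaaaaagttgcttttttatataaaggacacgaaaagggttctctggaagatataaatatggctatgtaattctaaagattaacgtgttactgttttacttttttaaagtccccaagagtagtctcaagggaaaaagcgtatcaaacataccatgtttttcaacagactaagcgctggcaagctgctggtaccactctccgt
The windows of HSP26, HSP30, SPI1, SSA3 and BTN2 held neither string, which says only that these letters are absent from 300 bases.

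Among the 9 cytosolic Hsp70 and Hsp110 genes, the inducible ones rose and the ribosome-bound ones fell. SSA4 (YER103W, chrV:364589-366517, plus strand) encodes a heat-inducible Hsp70. It reached 24396, 24039 and 31736 CPM in heated cells, against 133, 123 and 123 CPM in unstressed cells, a log2 change of 7.72 ± 0.15 (adjusted p 5.98e-20). SSA1, already abundant at 30 °C, had 22461, 20471 and 25662 CPM in heated cells and 1623, 1416 and 1446 CPM in unstressed cells, a log2 change of 3.93 ± 0.10. SSA2 and SSA3 rose by 2.97 and 5.21, and the Hsp110 exchange factors SSE1 and SSE2 by 2.75 and 5.23. SSB1 and SSB2, the Hsp70 pair that binds chains leaving the ribosome, went the other way. SSB1 had 264, 273 and 290.4 CPM in heated cells, against 3900.3, 3437 and 3520.4 CPM in unstressed cells, a log2 change of -3.72 ± 0.10, and SSB2 had 406, 401 and 435 CPM in heated cells, against 3400.4, 2984 and 3075 CPM in unstressed cells, a log2 change of -2.93 ± 0.10. SSZ1, their partner in the ribosome-associated complex, changed by -1.53. All 9 passed the test, and in the 4 given by library the groups did not overlap. SSA1 and SSA2, and likewise SSB1 and SSB2, are near-identical pairs whose reads the authors' counting could have split, so the values within a pair are uncertain.

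**Figure D3:**
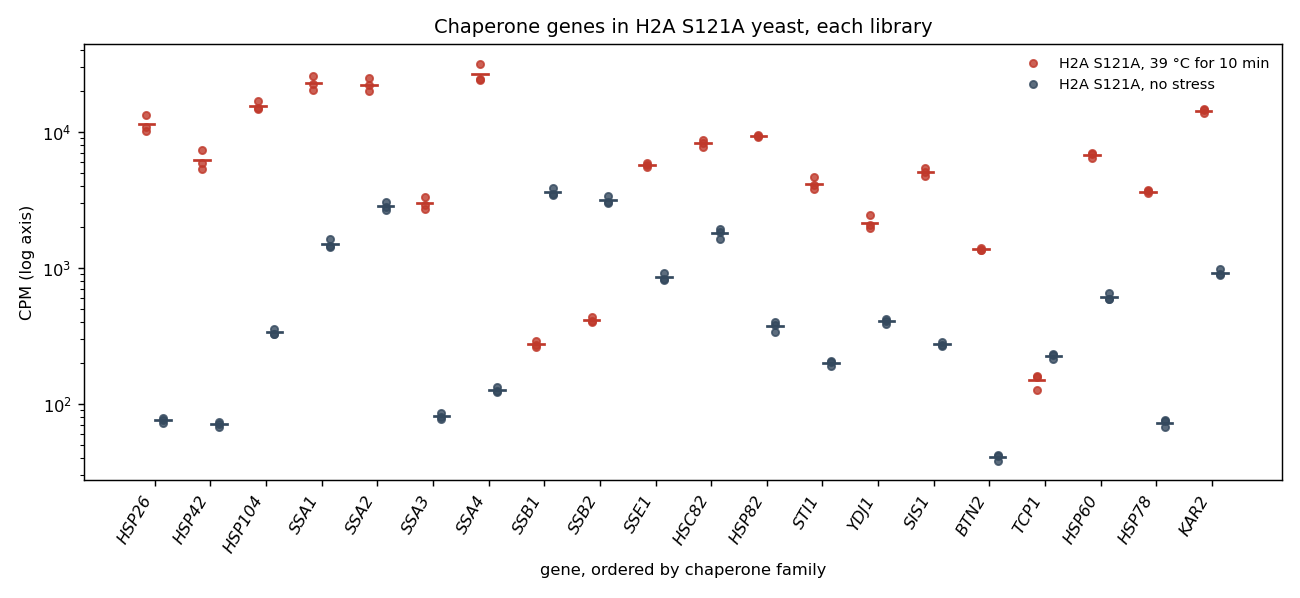
CPM (log axis) of 20 chaperone genes in each H2A S121A library, 39 °C for 10 min in red and no stress in blue-grey, with the mean of 3 libraries as a bar. SSA4 stands at 24396, 24039 and 31736 CPM after heat and 133, 123 and 123 CPM without stress, while SSB1, SSB2 and TCP1 lie lower after heat.

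Of 14 Hsp90 and co-chaperone genes, 9 rose and 5 fell, with a median log2 change of 0.78. HSP82 (YPL240C, chrXVI:96496-98625, minus strand), the inducible Hsp90, had 9576, 9118 and 9402 CPM in heated cells, against 400.4, 377 and 339 CPM in unstressed cells, a log2 change of 4.65 ± 0.09. HSC82, its constitutive and near-identical copy, had 8762, 8265 and 7743 CPM in heated cells, against 1944, 1835 and 1639 CPM in unstressed cells, a log2 change of 2.19 ± 0.08. The client-loading factor STI1 rose by 4.38, the ATPase activator AHA1 by 3.95 and the prolyl isomerase CPR6 by 3.99, whereas CPR7, PPT1, SGT1, CNS1 and TAH1 fell. Of 16 Hsp40, exchange and sorting factors, 10 rose and 6 fell, with a median of 0.59 that became -0.02 when libraries were scaled by totals alone. Of all genes 40.3% rose and 39.7% fell. In this list and in the Hsp90 list the share that fell was thus near that of all genes, and the share that rose was larger. SIS1, the Hsp40 that works with Hsp70 on aggregates, rose by 4.21 and APJ1 by 4.99. BTN2, which collects misfolded proteins at deposit sites, had 1403, 1348 and 1346 CPM in heated cells, against 41.4, 42.1 and 38.2 CPM in unstressed cells, a log2 change of 5.07 ± 0.12. The message of the regulator HSF1 itself stood at 71.3, 67.8 and 72.9 CPM in heated cells and 35.7, 35.1 and 34.8 CPM in unstressed cells, a log2 change of 1.01 ± 0.07.

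The chaperonin that folds actin and tubulin did not follow. Of 14 CCT and prefoldin genes, 13 fell and CCT6 was not called, with a median log2 change of -0.87. Among all genes 40.3% rose and 39.7% fell. TCP1, its first subunit, had 161, 157 and 127 CPM in heated cells, against 231, 213 and 230.0 CPM in unstressed cells, a log2 change of -0.60 ± 0.10. In mitochondria 11 of 14 chaperone genes rose and MGE1 and MCX1 fell, with a median of 0.75. The strongest was HSP78, the mitochondrial disaggregase, with 3548, 3649.7 and 3714 CPM in heated cells, against 74.5, 75.4 and 67.5 CPM in unstressed cells and a log2 change of 5.65 ± 0.08 (adjusted p 1.96e-21). The chaperonin HSP60 rose by 3.48 and the Hsp40 MDJ1 by 4.08. In the endoplasmic reticulum 15 of 20 folding genes rose and FPR2 and IRE1 fell (IRE1 without a call when heated replicate 3 was left out), with a median of 0.60 that became -0.02 with library totals alone. KAR2, whose window is printed above, had 14466, 13774 and 14861 CPM in heated cells, against 979, 881 and 904 CPM in unstressed cells, a log2 change of 3.96 ± 0.08. The oxidase ERO1 rose by 3.10 and the disulfide isomerase PDI1 by 1.29.

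The activator of the proteasome genes and most ubiquitin genes rose, where 40.3% of all genes were called higher. RPN4, the activator of proteasome genes, had 327, 316 and 311 CPM in heated cells, against 79.8, 82.1 and 74.9 CPM in unstressed cells, a log2 change of 2.01 ± 0.07. Of 33 proteasome subunit genes 26 were called higher, SEM1 lower and 6 neither, the call of SEM1 being lost without heated replicate 1 or 2 or unstressed replicate 2, with a median log2 change of 0.45 and no member above 0.80, but with library totals alone 1 was higher and 16 lower and the median was -0.17. UBI4, the polyubiquitin gene, had 4201, 3891 and 4572 CPM in heated cells, against 243, 227 and 210.0 CPM in unstressed cells, a log2 change of 4.22 ± 0.10, and UBC4, a ubiquitin-conjugating enzyme for misfolded proteins, rose by 2.18. Of 19 ubiquitin and quality control genes 17 rose, while SAN1 and SSM4, ubiquitin ligases of the nucleus and of the endoplasmic reticulum, fell. Most members of the proteasome list share an upstream string, the proteasome element GGTGGCAAA, found on either strand in 27 of 33 windows (81.8%), against 71 of all 5852 (1.21%). It was in 6 of 421 windows (1.43%) of the genes at least 4-fold higher. The window of RPT6, an ATPase of the regulatory particle (chrVII:411237-411536, minus strand), is printed with its element, 84 bases before the start codon, in capitals. RPT6 had 208, 189 and 212 CPM in heated cells, against 169, 154 and 156 CPM in unstressed cells, a log2 change of 0.35 ± 0.07 that turned negative with library totals alone.
RPT6: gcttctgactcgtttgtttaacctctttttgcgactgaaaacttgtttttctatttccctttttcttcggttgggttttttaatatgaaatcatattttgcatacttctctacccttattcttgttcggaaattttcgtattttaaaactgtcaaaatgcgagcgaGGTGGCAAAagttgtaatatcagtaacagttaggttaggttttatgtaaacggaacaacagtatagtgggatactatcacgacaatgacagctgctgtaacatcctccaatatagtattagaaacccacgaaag

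The general stress genes formed the second large group that rose. HSP30 (YCR021C, chrIII:156109-157107, minus strand), a plasma membrane stress protein, had the largest log2 change of any gene that met the rule for naming, 8.44 ± 0.14 (adjusted p 1.04e-20). Its level was 17814, 20429.5 and 20829 CPM in heated cells, against 58.7, 51.7 and 59.4 CPM in unstressed cells. TMA10, a ribosome-associated protein, had 2027, 1818 and 2715 CPM in heated cells, against 11, 10.7 and 10.6 CPM in unstressed cells, a log2 change of 7.66 ± 0.19. The cell wall protein SPI1 had 7312, 7488 and 8627 CPM in heated cells, against 58.3, 53.3 and 62.1 CPM in unstressed cells, a log2 change of 7.08 ± 0.12. In each of the 3 the groups stood far apart, but all 3 are among the 15 largest increases, which were taken only from genes without overlap. Other genes among the 15 largest increases were YNL194C and FMP45, a pair of related membrane proteins, at 7.68 and 6.63, RGI1, tied to energy metabolism, at 6.53, the glucose transporter HXT5 at 6.47, the aldehyde dehydrogenase ALD3 at 6.29 and the aromatic aminotransferase ARO9 at 6.02. All 19 small stress protein genes rose, between 2.27 and 8.44, with a median of 3.08. All 25 general stress genes rose too, between 1.44 and 6.63, with a median of 4.77. Of all genes 40.3% rose. These lists, like the other gene lists here, were chosen with earlier results of these data known, so their counts and their shares of promoter strings are descriptions. The catalase CTT1 had 3467, 3221 and 3375 CPM in heated cells, against 58.4, 54.1 and 53.8 CPM in unstressed cells, a log2 change of 5.92 ± 0.09.

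Trehalose, a sugar that protects proteins and membranes in heat, and glycogen had all their listed genes raised, 7 of 7 with a median log2 change of 3.67 and 13 of 13 with a median of 4.11. Over all genes tested 40.3% were called higher. TPS1 (YBR126C, chrII:488905-490392, minus strand), trehalose-6-phosphate synthase, had 5496, 5096 and 6332 CPM in heated cells, against 299.8, 279 and 266 CPM in unstressed cells, a log2 change of 4.33 ± 0.10. TPS2, the phosphatase of the next step, rose by 3.81, and NTH1, which breaks trehalose down, by 3.67. PGM2, the phosphoglucomutase that feeds both stores, had 5232, 4976 and 5034 CPM in heated cells, against 87.9, 87.3 and 82.9 CPM in unstressed cells, a log2 change of 5.88 ± 0.10. The glycogen phosphorylase GPH1 rose by 5.59 beside the synthases GSY1 and GSY2 at 4.11 and 4.40, so synthetic and degrading enzymes rose together. AGGGG, the stress response element, was found in 220 of 421 windows (52.3%) of genes at least 4-fold higher, in 49 of 515 (9.51%) of genes at least 4-fold lower, and in 1274 of all 5852 (21.8%). It was in 19 of 25 general stress windows (76%), 12 of 19 small stress protein windows (63.2%) and 4 of 7 trehalose windows (57.1%). The window of TPS1 (chrII:490343-490642, minus strand) is shown with its elements in capitals, 249 and 239 bases before the start codon and a further one inside the coding sequence.
TPS1: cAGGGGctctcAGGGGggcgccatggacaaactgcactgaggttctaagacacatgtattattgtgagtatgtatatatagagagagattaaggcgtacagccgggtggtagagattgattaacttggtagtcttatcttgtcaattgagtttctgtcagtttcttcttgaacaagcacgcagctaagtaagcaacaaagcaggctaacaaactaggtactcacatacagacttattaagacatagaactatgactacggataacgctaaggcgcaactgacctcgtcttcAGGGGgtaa

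Most glucose transporter genes rose, where 40.3% of all genes were called higher and 39.7% lower. Of 21 hexose transporter and sensor genes 17 rose and HXT1 and STD1 fell, with a median log2 change of 0.91. HXT5 had 1487, 1603 and 1776 CPM in heated cells, against 18.6, 17.9 and 18.5 CPM in unstressed cells, and the high-affinity carriers HXT7 and HXT2 rose by 4.69 and 4.22. HXT1, the low-affinity carrier used in plentiful glucose, had 219, 251 and 225 CPM in heated cells, against 658, 606 and 621 CPM in unstressed cells, a log2 change of -1.44 ± 0.09. HXT6 and HXT7 are near-identical and their split is uncertain. The glucose kinases rose, GLK1 by 4.08 and HXK1 by 5.41, and the invertase SUC2 by 3.73. Of 18 glycolysis genes 12 were called higher and CDC19, PDC1 and PDC5 lower, with a median of 0.51, but with library totals alone 5 were higher and 9 lower and the median was -0.10. Isozymes moved unequally: TDH1 changed by 2.53 and TDH2 by 0.11 (adjusted p 0.297), ENO1 by 2.30 and ENO2 by 0.63, and PYK2 by 3.62 and CDC19, the main pyruvate kinase, by -0.36. With library totals alone ENO2 stood at 0.02 and was not called (adjusted p 0.849), and TDH2 stood at -0.50. In the citric acid cycle 18 of 21 genes rose with a median of 1.5, CIT1 by 2.73. Of 34 respiration genes 30 rose, with a median of 0.97, and CYC1 fell. The forms of cytochrome c moved in opposite directions: CYC7 had 302, 269 and 340.1 CPM in heated cells, against 5.03, 5.58 and 4.7 CPM in unstressed cells, and CYC1 had 41, 37.6 and 44.1 CPM in heated cells, against 65.1, 59.4 and 57.2 CPM in unstressed cells.

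Of 23 oxidative stress and thiol genes 18 rose and TRX1, GSH1, GSH2 and MXR1 fell, with a median log2 change of 1.07. Of 21 autophagy genes 18 rose and ATG5 and ATG12, whose products are joined in autophagosome formation, fell, ATG12 without a call when heated replicate 3 or unstressed replicate 2 was left out, with a median of 1.05. Of 26 cell wall integrity genes 15 rose and 10 fell, with a median of 0.68, where 40.3% of all genes rose and 39.7% fell, so the share that fell was near that of all genes. The kinase of that pathway, SLT2, had 132, 126 and 136 CPM in heated cells, against 58.8, 62.2 and 56.5 CPM in unstressed cells, a log2 change of 1.15 ± 0.06. The secreted wall protein HSP150 rose by 1.36. Of 19 osmotic stress and glycerol genes 15 rose and GPP1, SLN1, SHO1 and TRK1 fell, with a median of 1.51.

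The ribosome assembly genes fell without exception. All 42 small-subunit and all 51 large-subunit assembly genes were lower in heated than in unstressed mutant cells, with median log2 changes of -3.85 and -3.89, where 39.7% of all genes were called lower. NOP7 (YGR103W, chrVII:695417-697234, plus strand), a scaffold of the large-subunit precursor, had 5.86, 6.5 and 5.51 CPM in heated cells, against 167, 168 and 151 CPM in unstressed cells. Its log2 change was -4.77 ± 0.09 with an adjusted p of 7.79e-20. ERB1, its partner in the same complex, had 5.63, 7.04 and 4.97 CPM in heated cells, against 110, 103 and 105 CPM in unstressed cells, a log2 change of -4.18 ± 0.13. RRP5, which joins the early steps of both subunits, had 5.31, 6.2 and 5.29 CPM in heated cells, against 149, 142 and 132 CPM in unstressed cells, a log2 change of -4.66 ± 0.11. In these 3 genes no heated library was above 7.04 CPM and no unstressed one below 103 CPM. NOP7 and RRP5 are among the 15 largest decreases, which were taken only from genes without overlap. Others among the 15 largest decreases were BRX1 at -4.82, the helicase DBP3 at -4.79, PUF6 at -4.77 and NIP7 at -4.70. A pair of strings was shared by most of these genes, GATGAG (the polymerase A and C element, PAC) and AAAAATTT (the ribosomal RNA processing element, RRPE), both searched on both strands. GATGAG was in 40 of 42 small-subunit windows (95.2%) and 47 of 51 large-subunit windows (92.2%), against 1181 of all 5852 (20.2%). AAAAATTT was in 34 of 42 (81%) and 44 of 51 (86.3%), against 840 of all 5852 (14.4%). Of the 515 genes at least 4-fold lower, 284 (55.1%) held GATGAG and 256 (49.7%) AAAAATTT, and of the 421 at least 4-fold higher 60 (14.3%) and 22 (5.23%) did.

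The windows of NOP7 (chrVII:695167-695466, plus strand) and of HCA4 (chrX:383587-383886, plus strand), an RNA helicase of small-subunit assembly, are printed as the gene with one of the deepest decreases and the gene whose decrease, among genes with at least 10 CPM in the higher group, differed most from that in the wild type. In NOP7 3 overlapping GATGAG begin 129, 124 and 119 bases before the start codon, between AAAAATTT on the opposite strand at 140 bases and on the gene's own strand at 105 bases. In HCA4 4 overlapping copies of GATGAG lie on the opposite strand and are read as CTCATC in the printed strand, 94, 89, 84 and 79 bases before the start codon, with AAAAATTT on the opposite strand at 124 bases. Capitals mark both strings.
NOP7: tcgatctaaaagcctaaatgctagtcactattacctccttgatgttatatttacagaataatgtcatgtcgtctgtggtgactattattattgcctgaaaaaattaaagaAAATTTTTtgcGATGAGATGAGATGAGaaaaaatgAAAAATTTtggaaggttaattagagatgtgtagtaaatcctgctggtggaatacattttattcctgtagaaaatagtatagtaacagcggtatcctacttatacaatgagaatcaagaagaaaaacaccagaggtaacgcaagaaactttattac
HCA4: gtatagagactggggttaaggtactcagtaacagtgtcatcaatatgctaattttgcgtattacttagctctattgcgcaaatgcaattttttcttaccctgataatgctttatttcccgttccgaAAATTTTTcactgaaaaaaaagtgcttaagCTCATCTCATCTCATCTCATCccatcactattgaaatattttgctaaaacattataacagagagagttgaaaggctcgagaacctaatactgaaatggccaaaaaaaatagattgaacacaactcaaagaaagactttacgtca
HCA4 had 12.1, 11.5 and 11 CPM in heated mutant cells, against 64.5, 62.6 and 59.6 CPM in unstressed mutant cells, a log2 change of -2.43 ± 0.09.

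The polymerases that transcribe ribosomal and transfer RNA followed. For the counts in this paragraph, the share called lower over all genes was 39.7%. Of 27 genes for RNA polymerases I and III and their factors, 25 fell with a median log2 change of -2.39, RPA14 was not called, and MAF1, a repressor of polymerase III, was called higher. RPA190, the largest subunit of polymerase I, had 14.7, 16.5 and 12.2 CPM in heated cells, against 254, 248 and 242 CPM in unstressed cells, a log2 change of -4.10 ± 0.12, and RPA43 changed by -4.68. The change of MAF1, 0.49 ± 0.14, turned negative with library totals alone, and RPA14 was then called lower, at -0.76 (adjusted p 7.54e-07). Of 137 ribosomal protein genes 135 fell, with a median of -2.09. RPL3 had 1542, 1374 and 1572 CPM in heated cells, against 4779, 4322 and 4048 CPM in unstressed cells, a log2 change of -1.55 ± 0.08. The deepest decreases were those of RPL22B at -4.12 and RPS26B at -3.74, members of duplicated pairs. RPL15B was called higher at 0.50, which turned negative with library totals alone, while its copy RPL15A changed by -2.26. GATGAG was in 7 of 56 windows of small-subunit and 8 of 81 windows of large-subunit ribosomal protein genes. Of 34 translation factor genes 28 fell, with a median of -1.81. YEF3, the elongation factor particular to fungi, had 460.1, 505 and 422 CPM in heated cells, against 6623, 5688 and 5924 CPM in unstressed cells, a log2 change of -3.72 ± 0.10, while its paralog HEF3 rose by 1.16. TEF1, one of 2 identical genes for elongation factor 1A, changed by -0.14 and was not called (adjusted p 0.163). With library totals alone TEF1 was called lower, at -0.75 (adjusted p 2.18e-09). Without heated replicate 3 it was called at -0.22 (adjusted p 0.0394). Among regulators of these genes, the PAC-binding repressors went apart, TOD6 at -3.27 and DOT6 at 1.25, and STB3, the repressor that binds RRPE, rose by 1.42.

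Genes of nucleotide and amino acid synthesis mostly fell as well, where 39.7% of all genes were called lower. Of 29 purine and pyrimidine genes 24 fell, with a median log2 change of -1.81. AAH1, adenine deaminase, had 4.4, 4.7 and 4.43 CPM in heated cells, against 169, 162 and 172 CPM in unstressed cells, a log2 change of -5.22 ± 0.12, the second largest decrease among the genes that met the rule. The largest was that of RFU1, an inhibitor of a deubiquitinating enzyme, with 0.497, 0.958 and 0.81 CPM in heated cells, against 28.4, 27.8 and 34.2 CPM in unstressed cells and a log2 change of -5.33 ± 0.23. URA7, CTP synthase, had 8.74, 8.56 and 10 CPM in heated cells, against 243, 234 and 228 CPM in unstressed cells, while its paralog URA8 had 259, 239 and 308 CPM in heated cells, against 77.7, 68.3 and 71.7 CPM in unstressed cells. Their log2 changes were -4.69 ± 0.10 and 1.89 ± 0.10. Of 10 branched-chain amino acid genes 7 fell, with a median of -1.38, and of 40 other amino acid genes 33 fell, with a median of -0.88. BAT1, the mitochondrial branched-chain aminotransferase, changed by -1.85 and BAT2, its cytosolic form, by 1.48. GCN4, the activator of amino acid genes, changed by -0.99. MET6, methionine synthase, changed by -1.81 within a sulfur list of 25 in which 16 fell and 5 rose.

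Genes of cell division and mating were mostly lower, where 39.7% of all genes were called lower. Of 35 genes of the G1/S transition 29 fell, with a median log2 change of -1.14. RNR1, the large subunit of ribonucleotide reductase, had 46.8, 44.9 and 42.6 CPM in heated cells, against 454, 415 and 455 CPM in unstressed cells, a log2 change of -3.30 ± 0.10, and the G1 cyclins CLN1 and CLN2 changed by -2.22 and -3.05. SIC1, the inhibitor that holds cells before S phase, had 85.3, 73.4 and 106 CPM in heated cells, against 53.9, 47.1 and 45.6 CPM in unstressed cells, a log2 change of 0.85 ± 0.11. The cyclin CLB2 changed by -1.77 in a G2/M list of 25 in which 15 fell and 3 rose, and 9 of 12 daughter-cell genes fell. The labels give mating type a, and the a-factor gene MFA2 stood at 132, 120.7 and 125 CPM in heated cells and 707, 676 and 718 CPM in unstressed cells, while the alpha-specific receptor STE3 stood at 13.8, 17.6 and 9.96 CPM in heated cells and 8.2, 9.27 and 9.6 CPM in unstressed cells. Of 7 tested genes that are alpha-specific or at the silent mating loci, STE3 alone was called higher and 4 were lower, with a median log2 change of -0.46. The call of STE3 was lost without heated replicate 2, and its change was 0.00 with library totals alone. Of 8 a-specific genes 7 fell, with a median of -2.14, and ASG7 rose. Of 20 pheromone response genes 15 fell, with a median of -1.31. FAR1, which arrests the cycle in answer to pheromone, had 5.36, 4.52 and 5.29 CPM in heated cells, against 112, 114 and 104 CPM in unstressed cells, a log2 change of -4.44 ± 0.09. PRM5, which is also a target of the cell wall pathway, was the one that rose, by 1.46.

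Heat and salt gave the mutant different profiles. The direct comparison of heated with NaCl-treated S121A cells, which does not use the unstressed libraries, called 1956 genes higher (30.6%) and 2148 lower (33.6%) after heat. Of the 91 chaperone and folding genes 54 were higher and 17 lower after heat, with a median log2 difference of 0.54, against -0.03 for all genes, and with library totals alone 43 were higher and 32 lower. Among cytosolic Hsp70 and Hsp110 genes 6 were higher and 3 lower with a median of 2.14, among Hsp90 and co-chaperone genes 9 were higher and 3 lower with 0.59, and among folding genes of the endoplasmic reticulum 15 were higher and 1 lower with 0.61. Of 14 CCT and prefoldin genes 2 were higher, 5 lower and 7 not called, with a median of -0.22. Their share called lower was near the 33.6% of all genes. HSP30 had 17814, 20429.5 and 20829 CPM after heat and 113, 102 and 107 CPM after NaCl, a log2 difference of 7.51 ± 0.13. ATG41, an autophagy factor, had 922, 961 and 1002 CPM after heat and 26.5, 25.3 and 24.7 CPM after NaCl, a log2 difference of 5.24 ± 0.14. PIN3 and ZPR1, a chaperone of elongation factor 1A, were 4.61 and 4.53 higher, and SSA4 5.02 higher. STL1, the glycerol importer, stood lowest against salt, with 6.28, 6.62 and 7.56 CPM after heat and 6019, 5692 and 5560.2 CPM after NaCl, a log2 difference of -9.72 ± 0.15. HXT1 had 219, 251 and 225 CPM after heat and 13564, 13332 and 13269 CPM after NaCl, a log2 difference of -5.85 ± 0.11. In these 4 genes the heated and salt-treated libraries did not overlap, which the rule for naming the largest differences from NaCl required. The enzymes of glycerol synthesis GPD1 and GPP2 were -2.01 and -3.55 on the same scale.

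The general stress genes did not separate the stresses in one direction. Of 25, 15 were higher and 9 lower after heat than after NaCl, with a median log2 difference of 0.34, and their shares of all counts were 5.48% ± 0.15 after heat, 5.78% after NaCl and 0.424% ± 0.0056 without stress. CTT1 was -0.85 and TPS2 -1.05 relative to NaCl, HXT5 -0.06 and PGM2 0.81. Ribosomal protein genes were further down after heat, 133 of 137 lower with a median difference of -1.46, and so were 72 of 93 ribosome assembly genes with a median of -0.85. Of 34 respiration genes 31 were higher after heat than after NaCl, with a median of 0.71. Proteasome genes were 15 of 33 higher and none lower, but 2 higher and 13 lower with library totals alone. Since both mutant responses share the unstressed libraries, their median responses are given only side by side: for ribosomal proteins -2.09 with heat and -0.65 with NaCl, and for the cytosolic Hsp70 list 2.97 with heat and 0.63 with NaCl.

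**Figure D4:**
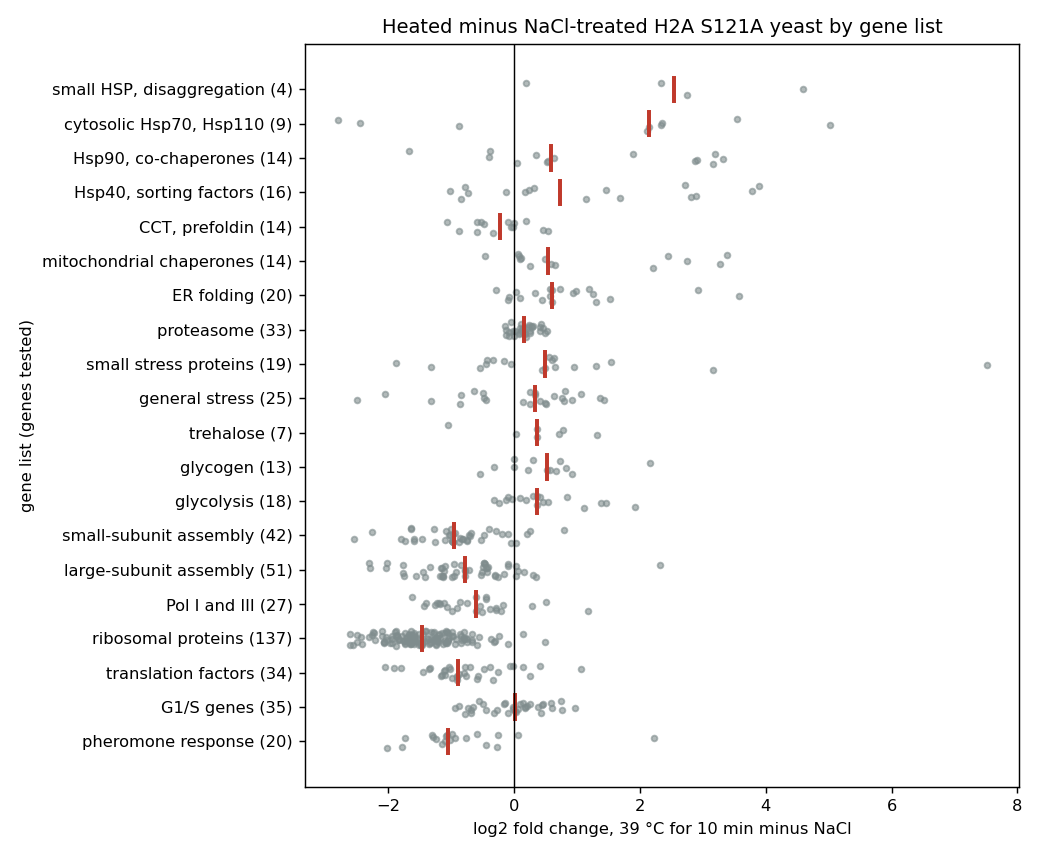
Log2 difference between heated and NaCl-treated H2A S121A yeast for each tested member of 20 gene lists, with the median as a red bar. Ribosomal proteins lie to the left of 0 with a median of -1.46, cytosolic Hsp70 genes have a median of 2.14, and general stress genes lie on both sides; the positive medians of the proteasome and G1/S lists turn negative when libraries are scaled by their totals alone.

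The heat response of the mutant was set against that of the wild type, which shares no library with it. Of the 2579 genes higher in heated mutant cells, 2279 (88.4%) were also called higher in heated wild-type cells, 87.8% of the wild-type list of 2595 (40.6%), and of the 2536 lower genes 2224 (87.7%) were called lower in the wild type, 88.5% of its list of 2512 (39.3%). Only 40 genes were called in opposite directions. Across the 6395 genes the log2 changes of the strains had a Pearson r of 0.964, which describes genes and not replicates, and an SD of 1.54 in the mutant and 1.73 in the wild type. The difference of the responses, mutant minus wild type, was tested for each gene: 992 (15.5%) were more positive in the mutant and 453 (7.08%) more negative. The split depended on scaling, since with library totals alone it was 503 and 1229, and on single libraries, since without wild-type heat replicate 1 the more negative genes were 894, without wild-type heat replicate 2 242, without wild-type heat replicate 3 280, without unstressed mutant replicate 2 244, without unstressed wild-type replicate 1 288, and without unstressed wild-type replicate 2 289. Of the genes called lower in the mutant 631 (24.9%) had a positive difference, a smaller fall, and 114 (4.5%) a negative one. Of those called higher 274 (10.6%) had a positive and 240 (9.31%) a negative difference.

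Among the gene lists, ribosome assembly had the most positive differences. Of its 93 genes 79 had a positive difference and none a negative one, with a median of 1.09, while the median responses were -3.89 in the mutant and -5.06 in the wild type. Leaving out each library in turn gave 76 to 81 such genes, and library totals alone gave 70 with none negative and a median of 0.86. HCA4, a helicase of small-subunit assembly outside that list, had the largest difference among called genes with at least 10 CPM in the higher group, 2.92 ± 0.14 (adjusted p 1.04e-10), with mean levels of 11.5 CPM in heated mutant and 1.36 CPM in heated wild-type cells, and of 62.2 CPM in unstressed mutant and 55.4 CPM in unstressed wild-type cells. NOP7 had a difference of 1.66 ± 0.13, at 5.96 CPM in heated mutant and 1.9 CPM in heated wild-type cells, with 162 CPM in unstressed mutant and 165 CPM in unstressed wild-type cells. In both genes the means of the strains lay closer together without stress than after heat. ERB1, UTP14, DRS1, SYO1, YTM1 and ROK1, all of them factors of subunit assembly or of import for it, had differences between 1.98 and 2.05. Ribosomal protein genes had 58 positive and no negative differences of 137, with a median of 0.35, which fell to 34 and 2 with library totals alone. SSB1 and SSB2 had differences of 1.56 and 1.38, AAH1 of 1.79, URA7 of 1.83, MET6 of 1.24 and RPA190 of 1.77. Glycolysis genes had 13 positive and no negative differences of 18, with a median of 0.43, which became 6 positive with a median of 0.21 with library totals alone. The count also rested on single libraries: it was 7 without unstressed mutant replicate 2, wild-type heat replicate 3 or unstressed wild-type replicate 1, and 8 without unstressed mutant replicate 3 or wild-type heat replicate 2. SUC2 and HXT2 rose more in the mutant, by differences of 1.29 and 1.22. Of 24 iron genes 15 had a positive and none a negative difference, with a median of 0.60. FET3, the iron uptake oxidase, had a difference of 1.45 ± 0.13, with 205 CPM in heated mutant and 192 CPM in heated wild-type cells, and 301 CPM in unstressed mutant and 769 CPM in unstressed wild-type cells.

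The 8 largest negative differences under the rule for naming were those of HSP26, HXT5, SIP18, YPT53, HSP12, FMP16, BTN2 and NQM1, most of them members of the stress and chaperone lists. Genes of the carbohydrate stores were not among them. The glycogen list had 5 positive and no negative differences of 13, and the trehalose list 1 positive and no negative of 7, each with a median of 0.17. Over all genes 15.5% were more positive and 7.08% more negative. Leaving out each library in turn gave 4 to 7 positive and 0 to 1 negative for glycogen, and 0 to 4 positive for trehalose. Library totals alone moved the median difference over all genes from 0.05 to -0.17. The medians of these 2 lists are no larger than that shift. HSP26 had a response of 7.24 in the mutant and 9.13 in the wild type, a difference of -1.89 ± 0.13. Its mean level was 11471 CPM in heated mutant and 11614 CPM in heated wild-type cells, and 75.8 CPM in unstressed mutant and 20.7 CPM in unstressed wild-type cells. HXT5 had a difference of -1.73 ± 0.15, with 1622 CPM in heated mutant and 1829.7 CPM in heated wild-type cells, and 18.3 CPM in unstressed mutant and 6.21 CPM in unstressed wild-type cells. HSP12 had a difference of -1.57 ± 0.22, with 3834 CPM in heated mutant and 5448 CPM in heated wild-type cells, and 147 CPM in unstressed mutant and 70.3 CPM in unstressed wild-type cells. BTN2 had a difference of -1.48 ± 0.14, with 1366 CPM in heated mutant and 1897 CPM in heated wild-type cells, and 40.6 CPM in unstressed mutant and 20.2 CPM in unstressed wild-type cells. In all 4 genes the unstressed mean was higher in the mutant. Of 19 small stress protein genes 11 had a negative and none a positive difference, with a median of -0.57, and 8 to 11 did so with each library left out in turn. HSP30, on chromosome III, had a difference of -1.08 ± 0.14. Of the 91 chaperone and folding genes 7 had a positive and 19 a negative difference, which became 11 and 25 without wild-type heat replicate 1, and 4 and 45 with library totals alone. HSP42 had a difference of 0.00 ± 0.15 (adjusted p 0.988), HSP104 of -0.07 ± 0.11 (adjusted p 0.679), SSA4 of -0.41 ± 0.15 (adjusted p 0.0601) and KAR2 of -0.08 ± 0.10 (adjusted p 0.607). With library totals alone HSP104, SSA4 and KAR2 were called, at -0.29 (adjusted p 0.0241), -0.63 (adjusted p 0.00107) and -0.30 (adjusted p 0.00277). HSP82 and HSC82 rose less in the mutant, by differences of -0.44 ± 0.11 (adjusted p 0.00675) and -0.32 ± 0.11 (adjusted p 0.0445). The call of HSC82 rested on every library but 3: it was lost in 9 of 12 fits that left out 1 library, with adjusted p up to 0.115, and with DESeq2's size factors (adjusted p 0.0752), whereas SSA4 was called without heated mutant replicate 3 or wild-type heat replicate 2.

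**Figure D5:**
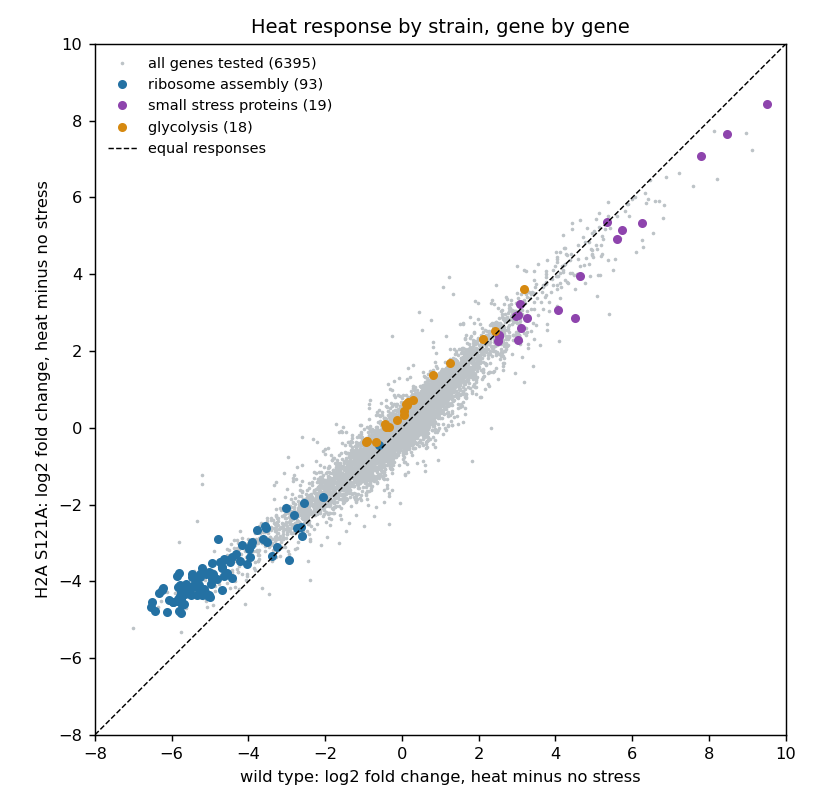
Heat response (log2 fold change, heat minus no stress) of each tested gene in H2A S121A yeast on the vertical axis and in the wild type on the horizontal axis, with 3 gene lists in colour and the line of equal responses dashed. Most ribosome assembly genes lie above the line at the lower left, with median responses of -3.89 in the mutant and -5.06 in the wild type, and most glycolysis genes lie on or just above it.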

How the data were processed

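Poly(A)-selected RNA of the 18 samples was sequenced as stranded 50 bp paired-end libraries, per the labels' protocols. The deposited values are raw counts per gene, and per the submitters' processing notes the tools named are DESeq2 1.10.1, featureCounts 1.4.6-p5 and, as aligner, TopHat2 2.0.1, with builds sacCer3 and R64. Strand and multiple-mapping settings are not given in the sources used here, so near-identical and overlapping genes are uncertain. Columns were matched to samples by their titles, and 0 columns were left without a sample. From the counts, edgeR 4.0.16 (R 4.3.3) fitted 1 mean per group over all 18 libraries after TMM scaling and filterByExpr, with a robust quasi-likelihood fit on 12 residual degrees of freedom. Two-sided tests were adjusted by Benjamini-Hochberg over all 6395 genes, and a call is an adjusted p under 0.05. Features filtered out held 0.00142% of counts. The standard error (SE) is the log2 change divided by the square root of its F statistic. The SE includes the spread between libraries, and the detection floor covers counting error only.

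Named genes were the 15 largest called changes each way without overlap of the groups and with at least 10 CPM in the higher group. Named too were the 8 largest called differences each way in the other comparisons, under the same CPM rule. Against NaCl, but not for the difference from the wild type, lack of overlap was also required. Added were the 4 largest of each list, its key members and up to 5 called against its median. BAT1, CCT6, ENO2, GSY1, HSP150, RPA14, RPL15A, RPL3, RPT6, TDH2, TEF1 and the mitochondrial genes were chosen after their values were seen. The members, lists and tests were chosen with earlier results of these data known. Replicate numbers were not used as pairs. Over 4977 genes the deviations of same-numbered heated and unstressed mutant libraries correlated at -0.04, 0.06 and -0.27. Between other groups, replicate 1 of the unstressed mutant and of the unstressed wild type reached 0.6. Heated mutant replicate 2 and NaCl-treated mutant replicate 1, of unlike number, reached 0.67. These correlations cannot decide whether samples were paired. Within each group no library was a copy of another within sampling noise. Pairs of libraries from different groups were not checked for this. The tests were first tested on simulated counts with known changes. Alternatives were DESeq2 1.42.0, its size factors, library totals alone, no filter, a fit of the compared groups only, a replicate block and leaving out each library. Promoter windows were cut from the RefSeq R64 genome with Python 3.11.15, and a 500-base window was added as an alternative after seeing the data.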

Additional observations from a re-analysis of the deposited data

Results flagged for a closer look

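Genes whose heat response differed between the strains by the test of the difference itself numbered 992 with a more positive and 453 with a more negative response in the mutant (mutant minus wild type, edgeR, adjusted p under 0.05). The 8 largest positive differences among named genes were all in ribosome assembly or import factors: HCA4 with 2.92, ERB1 with 2.05, SYO1, YTM1 and UTP14 with 2.03 each, DRS1 with 2.02, ROK1 with 1.98 and LTV1 with 1.90. Each of these genes fell in both strains, and by less in the mutant. The 8 largest negative differences were those of HSP26 with -1.89, HXT5 with -1.73, SIP18 with -1.64, YPT53 with -1.62, HSP12 with -1.57, FMP16 with -1.54, BTN2 with -1.48 and NQM1 with -1.39. Each of these rose in both strains, and by less in the mutant. Their cause was not tested.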

How the results depend on the processing

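Scaling moved counts most. With library totals alone, which carry no correction for the few genes that fill heated libraries, the heat response had 1372 higher and 3899 lower genes (2579 and 2536 with TMM), the difference from the wild type 503 and 1229 (992 and 453) and the contrast with NaCl 954 and 3415 (1956 and 2148). RPT6 then stood at -0.27, TDH2 at -0.50, CCT6 at -0.60, MAF1 at -0.12, RPL15B at -0.12 and HTA1 at -0.14, each positive with TMM. DESeq2, its size factors, no filter and the compared groups alone kept all 6 counts within 1.5 times. Leaving out each library gave 2494 to 2548 higher and 2435 to 2508 lower genes for the response, 690 to 1446 and 242 to 894 for the difference, and 1774 to 1880 and 1972 to 2094 against NaCl. Without heated mutant replicate 2, 15S_rRNA reversed to -0.60 and 21S_rRNA to -0.62, and over all such fits they ran up to 3.07 and 3.09. The replicate block gave 2579 and 2548, 1001 and 445, and 1968 and 2159 genes, put HSC82 at an adjusted p of 0.0527 and SSA4 at 0.0425 for the difference from the wild type, and not every library correlated best with its own number. Within 500 bases before the start codon the heat shock element was in 88 of 5851 windows (1.5%) and AGGGG in 2013 (34.4%). At these depths 3 counts are 0.0566 to 0.0758 CPM on unscaled totals, and lower levels were not detectable.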

Other observations

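Of 26 ergosterol genes 17 fell and 5 rose in the heated mutant, with a median log2 change of -0.47, and 13 had a positive difference from the wild-type response with a median of 0.39. Of 24 iron genes 13 rose and 8 fell, not far from the shares of all genes (40.3% and 39.7%), with a median of 0.54 that became -0.07 with library totals alone. Siderophore carrier SIT1 had 23.4, 27.8 and 23.5 CPM in heated mutant cells, against 64.7, 64.8 and 70.3 CPM in unstressed mutant cells, and its responses were -1.42 in the mutant and -3.29 in the wild type, a difference of 1.87 ± 0.14. Of 14 DNA damage response genes 11 rose, with a median of 0.61, and RAD53 fell. That median is about the size of the shift that scaling makes. With library totals alone the median over all genes was -0.63 instead of -0.01.

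The plasmid HTA1 had 1527, 1449 and 1527 CPM in heated mutant cells, against 1077, 1047 and 1119.9 CPM in unstressed mutant cells, a log2 change of 0.47 ± 0.10 that turned negative with library totals alone. HTA2, deleted in the genotype and near-identical to HTA1 in sequence, had 12.2, 12.7 and 12.1 CPM in heated cells and 22.1, 22.2 and 20.2 CPM in unstressed cells. Both ribosomal RNAs of the mitochondrial genome were called higher on the strength of 1 library: 21S_rRNA had 1.18, 27.5 and 0.999 CPM in heated mutant cells, against 0.829, 1.52 and 2.63 CPM in unstressed mutant cells, and 15S_rRNA had 0.549, 9.46 and 0.297 CPM in heated cells, against 0.282, 0.513 and 1.1 CPM in unstressed cells. In both, heated replicate 2 stood alone, and without it the log2 changes were -0.62 for 21S_rRNA and -0.60 for 15S_rRNA and neither was called.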
